A study of Rattus norvegicus with 12 samples.

Results

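The 41 genes described here encode proteins of the S phase of the cell cycle, most of them parts of the DNA replication machinery, and were compared between mild-hypo-OPCs and standard OPCs, which bears on the proliferative state of the cells. They were selected by symbol and function, and each of the 41 symbols was found among the 30562 rows of the count table. For Cdc45, the only symbol with 2 rows, the row with counts was used. The cells were oligodendrocyte precursor cells (OPCs) of wild-type genotype, isolated from the cortices of newborn Sprague-Dawley rats and grown in the mitogens FGF-2 and PDGF-AA. The mild-hypo-OPCs were kept at an FiO2 of 5%, for 6 hours according to the labels and for 6 days according to the methods of the study, and the standard OPCs were kept in room air. Each group had 6 libraries of bulk RNA. A legend of the study gives fewer biological replicates per group than there are libraries, and the labels do not tie libraries to cultures, so some libraries may share a culture. Every SD, SE and p-value below therefore measures the spread between libraries, with n counting libraries, and this spread may be partly technical.

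Total counts lay between 4111669 and 9022324 for the mild-hypo-OPCs and between 1356079 and 2797513 for the standard OPCs, without overlap, so depth and condition cannot be told apart by design. The 50 most abundant genes took 39.3% to 46.9% of the counts in mild-hypo-OPCs against 49.2% to 56.8% in standard OPCs. Levels are given as CPM, counts relative to the library total after TMM scaling, and differences as log2 fold changes of mild-hypo-OPCs relative to standard OPCs from edgeR's quasi-likelihood test, adjusted by Benjamini-Hochberg over the 8938 genes in which any library exceeded 10 CPM. At an adjusted p-value under 0.05, 626 of these genes (7%) were higher and 1520 (17%) were lower. Transcripts of OPC markers were present in every library, with at least 57 counts of Cspg4, 261 of Pdgfra and 346 of Olig2. Of 9 OPC markers tested Gpr17 and Nkx2-2 were called higher (0.45 and 0.20). The 9 summed to 3978 to 4565 CPM in mild-hypo-OPCs and 3314 to 4026 CPM in standard OPCs. The 10 oligodendrocyte markers summed to more, 13080 to 14440 CPM in mild-hypo-OPCs and 8885 to 12890 CPM in standard OPCs. The share of OPCs among the cells was not tested. In bulk RNA, fewer cells in S phase and less RNA per cell cannot be told apart.

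Replication is prepared in G1, when ORC, CDC6 and CDT1 load the ring-shaped MCM helicase onto origins. The helicase is then switched on by CDC45 and the GINS complex, polymerases copy the strands while tethered by the PCNA clamp, and ribonucleotide reductase and thymidylate synthase supply the deoxynucleotides. Most of these genes are known targets of E2F transcription factors, and OPCs, unlike most cells of the postnatal brain, keep dividing until they differentiate.

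The sequence just upstream of the gene start was the first property compared. It was not itself used to choose the genes, but they were chosen by function and most are known E2F targets. A high share of an E2F-type motif is therefore not independent of that choice. RefSeq promoter windows of the GRCr8 assembly, with 250 bases before and 50 after the gene start, were matched by symbol for 33 of the 41 genes. They were not matched for Atad2, Blm, Ccne2, Cdc6, Dscc1, E2f8, Mcm4 and Rrm2. An E2F-type motif, counted as TTTCCCGC, TTTGGCGC or TTTCGCGC on either strand with overlapping matches kept, was present in 19 of the 33 genes (57.6%). The share was 1.93% over all 27456 genes with a window and 3.75% over the genes that passed the expression filter. It was 37.2% (16 of 43) among other replication genes and 2.0% (1 of 50) in a list of G2 and mitosis genes. The CCAAT box, counted as CCAAT or its reverse complement, was found in 66.7% of the S-phase genes, 39.6% of all genes and 76.0% of the G2 and mitosis genes. Each of the 5 MCM subunit genes with a window (Mcm2, Mcm3, Mcm5, Mcm6 and Mcm7) held the E2F-type motif, whereas the windows of Pcna, Rrm1, Nasp and Prim1 held none. A match of letters is a description of the window and not a measured binding site. The upstream sequences of Mcm5 (GRCr8 chr19:13488583-13488812, + strand), Mcm6 (chr13:42404353-42404502, - strand) and Ubr7 (chr6:127663304-127663453, + strand) show the motif, in capitals, at different distances from the gene start, which is the base after the last one printed. Those of Pcna (chr3:139955821-139955970, - strand) and Rrm1 (chr1:166235754-166235903, + strand) are shown as windows without it.
Mcm5: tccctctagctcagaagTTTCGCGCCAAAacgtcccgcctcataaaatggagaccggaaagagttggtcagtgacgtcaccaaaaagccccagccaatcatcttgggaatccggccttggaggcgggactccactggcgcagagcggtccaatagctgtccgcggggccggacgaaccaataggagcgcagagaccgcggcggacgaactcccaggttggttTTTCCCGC
Mcm6: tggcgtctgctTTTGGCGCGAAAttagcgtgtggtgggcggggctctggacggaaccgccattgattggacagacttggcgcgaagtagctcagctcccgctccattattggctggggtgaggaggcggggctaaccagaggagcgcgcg
Ubr7: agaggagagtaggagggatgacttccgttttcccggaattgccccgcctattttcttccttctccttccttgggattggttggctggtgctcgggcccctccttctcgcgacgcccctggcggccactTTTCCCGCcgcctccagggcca
Pcna: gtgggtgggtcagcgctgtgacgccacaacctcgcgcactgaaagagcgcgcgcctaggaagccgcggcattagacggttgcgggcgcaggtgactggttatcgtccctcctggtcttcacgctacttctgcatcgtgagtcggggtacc
Rrm1: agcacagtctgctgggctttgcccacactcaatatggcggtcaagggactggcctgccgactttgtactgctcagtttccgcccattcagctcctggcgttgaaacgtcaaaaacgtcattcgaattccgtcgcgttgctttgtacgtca

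Shorter stretches show the motif with its neighbouring bases in Mcm2 (chr4:122918089-122918116, - strand), where matches on both strands overlap, in Mcm7 (chr12:22163215-22163238, - strand), Uhrf1 (chr9:1223079-1223102, + strand), Usp1 (chr5:118703017-118703040, + strand) and Hells (chr1:246114092-246114115, + strand).
Mcm2: gacccggtTTTCGCGCGAAAacccgtgg
Mcm7: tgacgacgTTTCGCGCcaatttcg
Uhrf1: gagtcgggTTTCGCGCgccctggc
Usp1: ctcgcgccTTTCGCGCctctgcaa
Hells: gaccaggtTTTCCCGCgaaagaga
Of the 7 genes called higher below, 4 had a promoter window and all 4 held the motif. Of the 18 tested genes with a window that were not called, 10 held it. The 4 genes had 6 windows and the 18 genes had 18, and a gene counted if any of its windows held the motif. The difference was not tested.

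**Figure D1:**
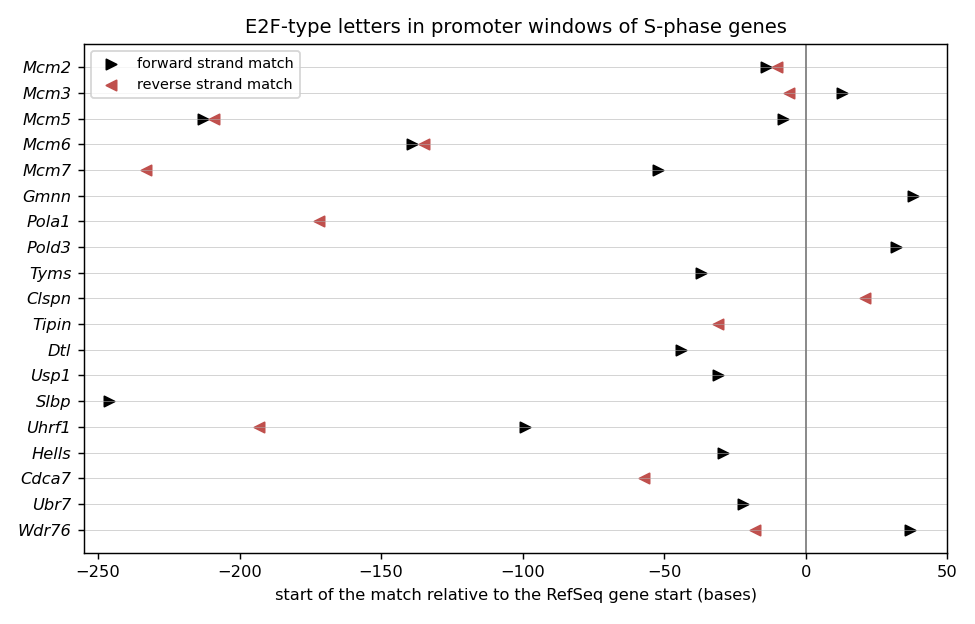
Start of each E2F-type match relative to the RefSeq gene start, in bases, for the 19 S-phase genes with at least 1 match, with black triangles for forward and red triangles for reverse matches. In the plot, matches lie on either side of the gene start and are spread from 246 bases upstream (Slbp) to 38 bases downstream (Gmnn).

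Counts of the 41 genes were low, and 26 passed the filter. Of these, 20 passed it in libraries of both groups, 5 (Mcm10, Pold3, Dtl, Ung and Atad2) only through mild-hypo-OPC libraries and 1 (Tipin) only through standard OPC libraries. In total 7 of the 26 were called higher in mild-hypo-OPCs, Mcm2, Mcm4, Mcm5, Mcm6, Rrm2, Uhrf1 and Atad2, against a background of 7% of all genes called higher. None was called lower by edgeR's quasi-likelihood test or limma-voom, 1 (Tipin) was by DESeq2, and the same 1 had an unadjusted p under 0.05 in edgeR, whereas 17% of all genes were called lower. The libraries of the groups did not overlap for 5 genes, Mcm2, Mcm5, Mcm6, Uhrf1 and Atad2, all higher, and such separation was found upward in 2.94% and downward in 5.4% of all genes. The median log2 fold change of the 26 genes was 0.30, beside 0.00 for all genes tested (-0.0031 before rounding). With no filter it was 0.39 for all 41 genes beside 0.05 for all genes with counts, and 0.26 for the 18 genes with at least 10 counts in every library beside 0.00 for the genes kept by that rule (-0.0021 before rounding). The log2 fold change was above 0 for 23 of the 26 genes and for 49.6% of all genes.

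**Figure D2:**
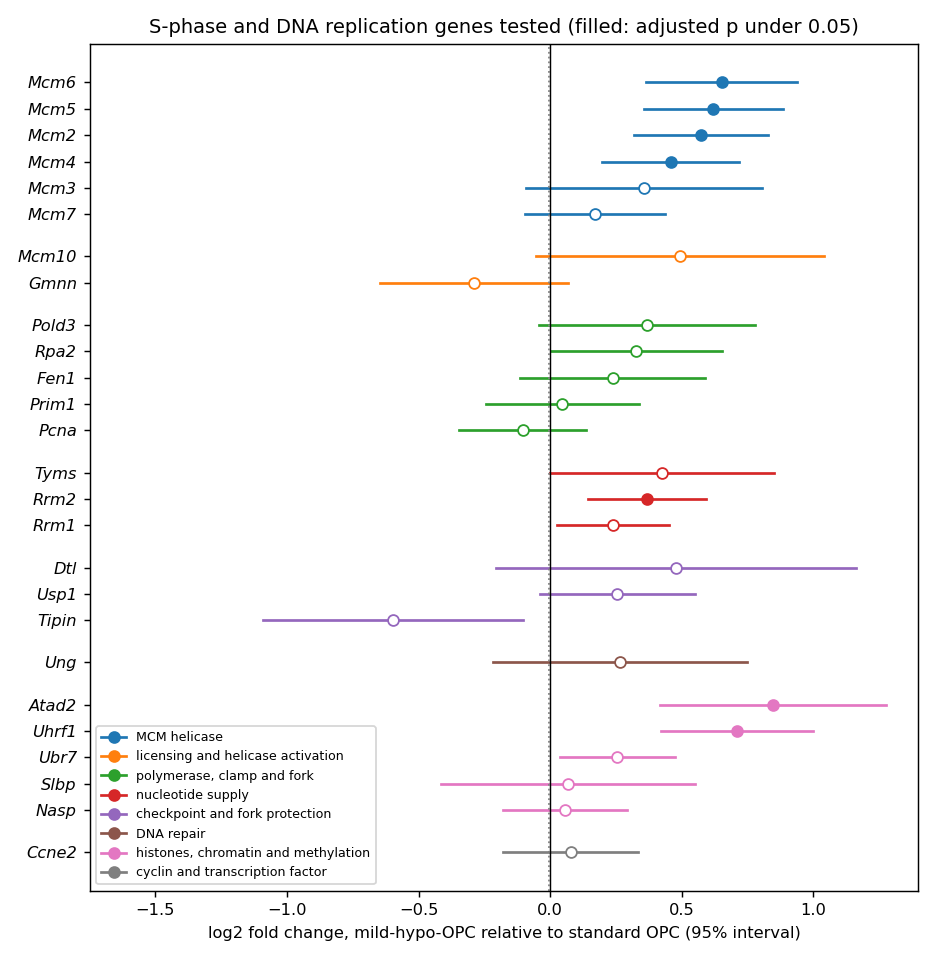
Log2 fold change of mild-hypo-OPCs relative to standard OPCs (horizontal axis) with its 95% interval for the 26 genes tested, grouped by role, with filled points for an adjusted p under 0.05 and a dotted line at the median of all genes. Of the 6 MCM genes at the top 4 are filled, and the intervals of Gmnn, Pcna, Prim1, Nasp, Slbp and Ccne2 are among those that include 0.

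The MCM helicase, the motor that unwinds DNA at the fork, is a ring of the products of Mcm2, Mcm3, Mcm4, Mcm5, Mcm6 and Mcm7. All 6 genes passed the filter, 4 rose and 2 were not called. Mcm6 (ENSRNOG00000003703) was at 31.4, 34.1 and 37.7 CPM (lowest, median and highest library) in mild-hypo-OPCs against 14.0, 20.4 and 30.1 CPM in standard OPCs. Every mild-hypo-OPC library lay above every standard OPC library, and the standard OPC libraries were the more spread. Its log2 fold change was 0.65 ± 0.14 (SE, 1.57-fold, adjusted p = 0.00205 in edgeR). Mcm5 (ENSRNOG00000014336), whose product closes the ring next to that of Mcm2, was at 22.7, 24.1 and 28.6 CPM in mild-hypo-OPCs against 13.3, 14.2 and 20.6 CPM in standard OPCs. The groups again did not overlap, with a log2 fold change of 0.62 ± 0.13 (SE, adjusted p = 0.00159 in edgeR). Mcm2 (ENSRNOG00000016316) was at 22.3, 23.2 and 26.9 CPM against 12.7, 15.6 and 19.9 CPM, also without overlap, and its log2 fold change was 0.57 ± 0.12 (SE, adjusted p = 0.00221 in edgeR).

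Mcm4 (ENSRNOG00000001833), part of the catalytic core of the ring, was at 27.4, 33.3 and 38.8 CPM in mild-hypo-OPCs against 19.1, 23.4 and 34.1 CPM in standard OPCs. It overlapped through 1 standard OPC library that lay above 5 of the 6 mild-hypo-OPC libraries, and was called higher with a log2 fold change of 0.46 ± 0.12 (SE, adjusted p = 0.0117 in edgeR). Mcm7 (ENSRNOG00000001349), the most counted subunit, was at 37.8, 44.2 and 47.7 CPM in mild-hypo-OPCs against 22.9, 38.0 and 51.7 CPM in standard OPCs. The mild-hypo-OPC values fell inside the range of the standard OPCs, and the log2 fold change of 0.17 (95% interval -0.10 to 0.44, adjusted p = 0.356 from edgeR) was not larger than the spread. Mcm3 (ENSRNOG00000012543), the least counted, was at 8.40, 9.05 and 12 CPM against 3.89, 7.38 and 11.3 CPM, with 7 to 26 counts per standard OPC library. Its log2 fold change of 0.36 (95% interval -0.09 to 0.80, adjusted p = 0.243 from edgeR) leaves no change and a change as large as that of Mcm6 both possible. The interval of Mcm7 ends below the estimates of the 4 called subunits but overlaps their intervals. Whether the called and the uncalled subunits differ was not tested, so a difference was not shown.

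**Figure D3:**
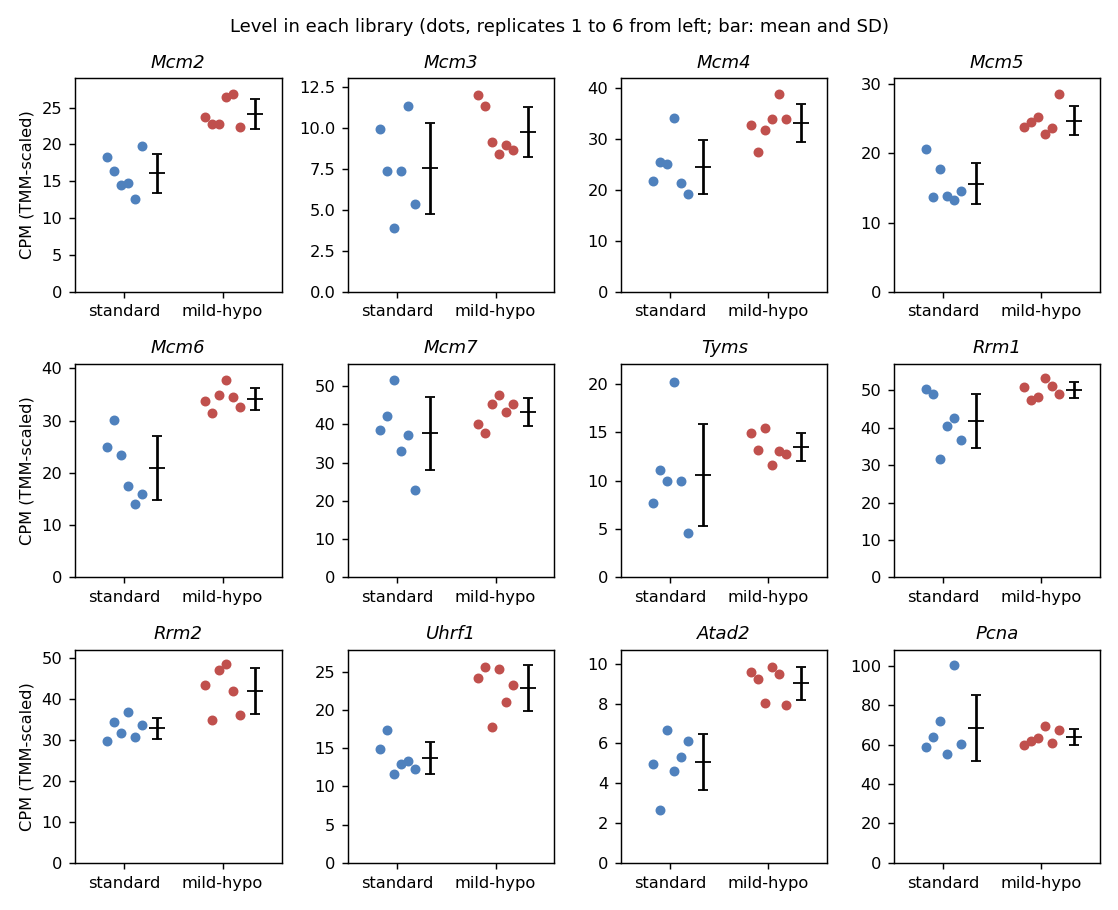
CPM after TMM scaling (vertical axes, each from 0) in each library for the 6 MCM genes, the 3 nucleotide supply genes, Uhrf1, Atad2 and Pcna, with dots for replicates 1 to 6 of standard OPCs (blue) and mild-hypo-OPCs (red) and bars for the mean and SD. Dots of the groups do not overlap for Mcm2, Mcm5, Mcm6, Uhrf1 and Atad2, and standard OPC replicate 5 stands alone at 100.6 CPM for Pcna.

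Summed over the 6 subunits, MCM transcripts were at 169.2 ± 7.94 and 122.3 ± 15.9 CPM (SD, n = 6 each) in the mild-hypo-OPCs and the standard OPCs, 1.38 times as much. The lowest mild-hypo-OPC library (155.2 CPM) lay above the highest standard OPC library (136.2 CPM). Within the standard OPCs, the deeper libraries numbered 1 to 3 held 134.2 to 136.2 CPM and the shallower ones numbered 4 to 6 held 97.7 to 120.6 CPM. In mild-hypo-OPCs the same sums were 155.2 to 169.4 CPM in replicates 1 to 3 and 171.5 to 176.8 CPM in replicates 4 to 6, so the sum was lower in the libraries numbered 4 to 6 of one group and higher in those of the other. A ratio of counts within a library does not depend on the scaling. MCM counts per Pcna count were 2.51, 2.61 and 2.90 (lowest, median and highest library) in mild-hypo-OPCs against 1.09, 2.01 and 2.28 in standard OPCs, without overlap. The lowest of these, 1.09, came from standard OPC replicate 5, where Pcna was at 100.6 CPM. MCM counts per Nasp count were 2.71, 3.31 and 3.55 against 1.47, 2.47 and 3.55, and these ranges overlapped. Counts of Mcm2 to Mcm6 per Mcm7 count were 2.704 to 3.135 in mild-hypo-OPCs against 1.634 to 3.267 in standard OPCs, also with overlap. Of these ratios only the one to Pcna separated the groups. How often such ratios separate over all genes was not tested.

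Of the 5 chosen S-phase genes that load and switch on the helicase, only Gmnn and Mcm10 passed the filter and neither was called. Further genes of this role, among them Cdt1 (called higher) and Gins4 (called lower), are given below. Gmnn, which encodes geminin, the inhibitor of CDT1 that blocks relicensing, was at 7.82, 10.3 and 12.4 CPM in mild-hypo-OPCs against 10.1, 12.03 and 15.99 CPM in standard OPCs, with a log2 fold change of -0.29 (95% interval -0.65 to 0.07, adjusted p = 0.237 from edgeR). Mcm10, a scaffold that activates the loaded helicase, had a log2 fold change of 0.49 ± 0.26 (SE, adjusted p = 0.183 in edgeR) and rested on 2 to 17 counts per standard OPC library. The loading factor Cdc6, the helicase cofactor Cdc45 and the GINS subunit Gins2 were below the filter. Without the filter their log2 fold changes were 0.89 (standard error 0.35), -0.25 (standard error 0.23) and -0.47 (standard error 0.34), and none was called (edgeR, adjusted p from 0.0902 to 0.540).

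Of the 8 genes of the polymerases, the clamp and the fork among the 41, 5 were tested and none was called. Further genes of this role, some of them called, are given below. Pcna (ENSRNOG00000021264), the sliding clamp and the most counted of the 41 genes, was at 59.6, 62.5 and 69.7 CPM in mild-hypo-OPCs against 55.2, 62.1 and 100.6 CPM in standard OPCs. The medians were nearly equal and standard OPC replicate 5 lay far above the other 11 libraries. The log2 fold change was -0.10 (95% interval -0.34 to 0.14, adjusted p = 0.545 from edgeR), and without that library it was 0.03. The primase subunit Prim1 had a log2 fold change of 0.05 (95% interval -0.24 to 0.34), the flap endonuclease Fen1 of 0.24, the single-strand binding protein gene Rpa2 of 0.33 (95% interval 0.0027 to 0.65, adjusted p = 0.134 from edgeR) and the polymerase delta subunit Pold3 of 0.37, the largest in this group. Pola1, the catalytic subunit of polymerase alpha, the clamp loader subunit Rfc2 and Dscc1 were below the filter, with log2 fold changes without it of 0.34, 0.29 and 0.67, none called.

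Nucleotide supply was represented by 3 genes, of which 1 rose. Rrm2 (ENSRNOG00000054286), the small and S-phase-restricted subunit of ribonucleotide reductase, was at 34.8, 42.6 and 48.6 CPM in mild-hypo-OPCs against 29.8, 32.6 and 36.8 CPM in standard OPCs. In 4 of 6 mild-hypo-OPC libraries it lay above every standard OPC library, with a log2 fold change of 0.37 ± 0.11 (SE, 1.29-fold, adjusted p = 0.0176 in edgeR). Rrm1 (ENSRNOG00000045752), the large subunit, was at 47.4, 49.9 and 53.3 CPM against 31.7, 41.6 and 50.5 CPM, a log2 fold change of 0.24 (95% interval 0.03 to 0.45) that was not called (adjusted p = 0.0958 from edgeR), except when standard OPC replicate 1 was left out (0.31, edgeR adjusted p = 0.0316). Tyms (ENSRNOG00000037225), thymidylate synthase, was at 11.7, 13.1 and 15.4 CPM against 4.58, 10 and 20.2 CPM. In 5 of 6 standard OPC libraries it lay below every mild-hypo-OPC library, and in the other, replicate 4, above all of them, at 6 to 22 counts each. Its log2 fold change of 0.43 was not called (SE 0.20, adjusted p = 0.138 in edgeR). With that library left out Tyms was called higher (0.63, edgeR adjusted p = 0.0193).

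The checkpoint and fork protection genes were not called. Usp1, the deubiquitinase of PCNA and FANCD2, was at 24.0, 28.8 and 33.8 CPM in mild-hypo-OPCs against 17.6, 24.97 and 31.99 CPM in standard OPCs, with a log2 fold change of 0.26 (95% interval -0.04 to 0.55, adjusted p = 0.201 from edgeR). Dtl, the substrate receptor that degrades CDT1 in S phase, was at 3.73, 6.15 and 8.96 CPM against 1.53, 3.58 and 8.45 CPM, with a log2 fold change of 0.48 (95% interval -0.21 to 1.16, adjusted p = 0.310 from edgeR). Tipin, a partner of Timeless in the fork protection complex, was the gene with the lowest log2 fold change among the 26. It was at 5.15, 6.51 and 7.56 CPM in mild-hypo-OPCs against 4.75, 9.17 and 17.5 CPM in standard OPCs, and it passed the filter through 1 library. Its log2 fold change of -0.60 (standard error 0.24) was not called by edgeR (adjusted p = 0.0722) and was by DESeq2 (-0.59, adjusted p = 0.0463), and by edgeR without standard OPC replicate 2. Clspn, which encodes the checkpoint mediator claspin, was below the filter at 4.10, 5.18 and 7.11 CPM against 0.920, 3.004 and 7.23 CPM, and without the filter its log2 fold change was 0.62 ± 0.30 (SE, adjusted p = 0.185 in edgeR).

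Of 5 tested genes of chromatin duplication and maintenance methylation 2 rose, and the median log2 fold change of the 5 was 0.26, beside 0.52 for the 6 MCM genes. Uhrf1 (ENSRNOG00000048411), which brings the maintenance methyltransferase DNMT1 to newly copied DNA, was at 17.8, 23.7 and 25.6 CPM in mild-hypo-OPCs against 11.7, 13.1 and 17.4 CPM in standard OPCs. The groups did not overlap, and its log2 fold change was 0.71 ± 0.14 (SE, 1.64-fold, adjusted p = 0.00109 in edgeR). Atad2 (ENSRNOG00000025604), a bromodomain ATPase of replicating chromatin, was at 7.93, 9.35 and 9.83 CPM against 2.64, 5.15 and 6.67 CPM, again without overlap. It had a log2 fold change of 0.85 ± 0.21 (SE, adjusted p = 0.00571 in edgeR), with 5 to 13 counts per standard OPC library, and passed the filter only through mild-hypo-OPC libraries. Ubr7 (0.26), the histone mRNA binding protein gene Slbp (0.07) and the histone chaperone Nasp (0.06) were not called (edgeR, adjusted p = 0.0821, 0.860 and 0.755), although Ubr7 was called when standard OPC replicate 2 or 5 was left out (0.31 each, edgeR adjusted p = 0.0433 and 0.0432). For Nasp the 95% interval of -0.18 to 0.29 does not reach the estimate of Uhrf1. Hells, a chromatin remodeller, Cdca7, Chaf1b and Wdr76 were below the filter, with log2 fold changes without it of 0.66, 0.40, 0.45 and 0.35. The lowest adjusted p of these was 0.0572, for Hells (edgeR).

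The DNA repair genes were thinly counted. Ung, uracil-DNA glycosylase, had a log2 fold change of 0.27 (95% interval -0.22 to 0.75), and Exo1, Blm and Rad51ap1 were below the filter (0.72, 0.47 and 0.37 without it, none called). Ccne2, the cyclin E2 gene that acts at S-phase entry, was at 15.9, 17.1 and 18.8 CPM in mild-hypo-OPCs against 13.7, 15.5 and 20.6 CPM in standard OPCs, with a log2 fold change of 0.08 (95% interval -0.18 to 0.33). The repressor E2f8 was below the filter (0.60 without it, standard error 0.29, adjusted p = 0.176 from edgeR). Of all 15 genes below the filter, 13 had a log2 fold change above 0 without the filter and 0 were called by edgeR, with between 0 and 22 counts per standard OPC library. With filterByExpr as the filter 9 of 39 genes were called higher, the 7 above with Cdc6 (0.85, adjusted p = 0.0499 from edgeR) and Hells (0.62, adjusted p = 0.0478 from edgeR).

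Other genes of the same processes, from lists assembled by function, are given by their counts, beside 7% of all genes called higher and 17% called lower. Of 51 further replication genes 36 were tested, 3 were higher and 6 were lower, with a median log2 fold change of 0.06. Cdt1, the licensing factor that geminin inhibits, was at 6.42 to 10.7 CPM in mild-hypo-OPCs against 1.999 to 5.52 CPM in standard OPCs, without overlap (1.03 ± 0.26, SE, adjusted p = 0.00679 in edgeR). The other higher genes, named after their values were seen, were Pold1, the catalytic subunit of polymerase delta (0.66), and Lig1, the ligase that joins Okazaki fragments (0.47). Pole4 and Rfc4, accessory subunits of polymerase epsilon and of the clamp loader, fell by 0.95 and 0.88 on the log2 scale. The other lower genes were Rnaseh2c (-0.86), Rpa3 (-0.73), Gins4 (-0.58) and Pole3 (-0.41). The groups did not overlap for 3 higher genes (Cdt1, Pold1 and Lig1) and 3 lower genes (Rfc4, Rnaseh2c and Rpa3). Over all genes such separation was found upward in 2.94% and downward in 5.4%. Cdt1 and Pold1 passed the filter only through mild-hypo-OPC libraries. Pole4, Rfc4 and Rnaseh2c passed it only through standard OPC libraries, so in each case through the group where the gene is high. With no filter Recql4 was also called higher (1.94, adjusted p = 0.0212 in edgeR). Of 31 other nucleotide supply genes 29 were tested, 0 were higher and 6 were lower by edgeR, with 4 higher and 8 lower at an unadjusted p under 0.05, where 13.4% of all genes were higher and 22.9% lower. The nucleoside diphosphate kinase genes Nme1 and Nme2 fell by 0.69 and 0.71 and the guanylate kinase gene Guk1 by 0.69. Of 31 checkpoint and repair genes 15 were tested, and only the clamp subunit gene Rad9a was called (-1.35), which passed the filter only through standard OPC libraries. Among those below the filter, the kinase gene Chek1 was at 5.46 to 6.97 CPM in mild-hypo-OPCs against 1.84 to 5.00 CPM in standard OPCs, without overlap. With no filter Chek1 (0.89, adjusted p = 0.0245 in edgeR) and Bard1 (1.09, adjusted p = 0.0396 in edgeR) were called higher, and both were named after their values were seen. Among 10 E2F and RB family genes tested, Mybl2 was higher (0.82) and E2f5 and Tfdp1 were lower (-0.56 and -0.33). In the G2 and mitosis list 49 of 55 genes were tested, with 5 higher, 3 lower and a median log2 fold change of 0.15. Dlgap5 (0.57) and Gtse1 (0.46) were higher and Birc5 (-0.51) was lower, and Dlgap5 passed the filter only through mild-hypo-OPC libraries. Summed, this list was at 1869 ± 25.4 and 1814 ± 88.1 CPM (SD, n = 6 each) in the mild-hypo-OPCs and the standard OPCs, 1.03 times as much, beside 673.8 ± 11.99 and 563.4 ± 30.4 CPM (SD, n = 6 each) for the 41 S-phase genes, 1.20 times as much. The 51 further replication genes summed to 937.3 ± 31.9 and 899.8 ± 34.5 CPM (SD, n = 6 each), 1.04 times as much, with overlap. The other nucleotide supply genes summed to means of 1160 and 1356 CPM, 0.856 times as much. Of the marker lists described below, 4 had ratios above the 1.20 of the S-phase genes. These were microglia (1.306), oligodendrocytes (1.225), neurons (1.221) and mesenchymal and endothelial cells (1.447). Ratios were lower for the OPC and astrocyte markers. A rise of this size was therefore not particular to the S-phase genes. The differences between the lists were not tested.

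**Figure D4:**
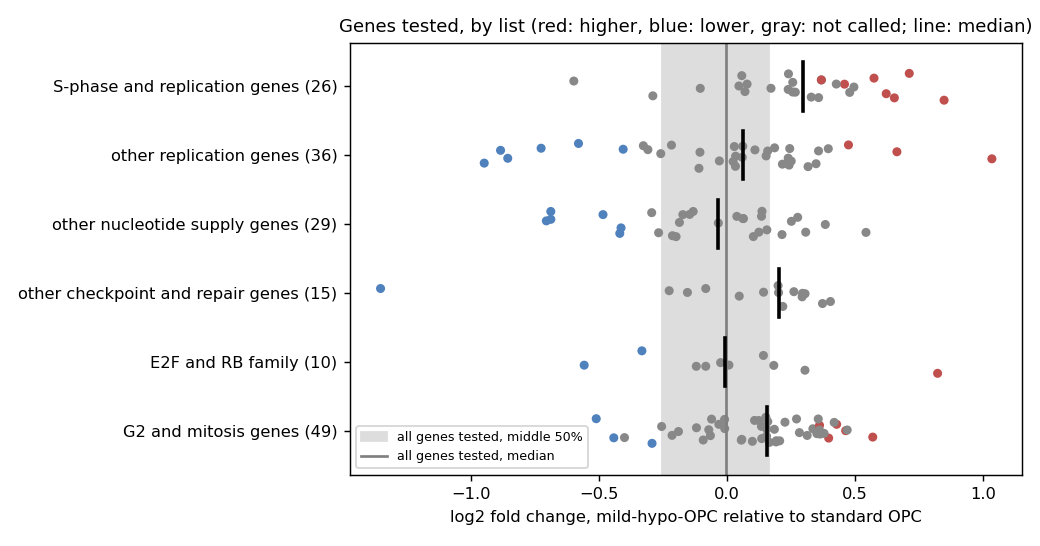
Log2 fold change of each tested gene (horizontal axis) in the S-phase genes and 5 other lists, with red, blue and gray dots for genes called higher, lower or not called, black lines for the medians, and the median and middle 50% of all genes in gray. The median of the S-phase genes is 0.30, and those of the other lists run from -0.03 to 0.20.

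Gene span from RefSeq was the only length used here. Over the 8544 tested genes with a span, divided into 4 bins of equal size, the median log2 fold change was -0.22 in the bin of shortest genes and -0.02, 0.07 and 0.06 in the next 3. Of the 26 S-phase genes 5 were in the shortest bin (Pcna, Gmnn, Mcm7, Fen1 and Ung), 16 in the next bin and 5 in the one after it. Across the 26 genes, which share the same 12 libraries, span and log2 fold change had a Spearman's rho of 0.54, and across all genes with a span 0.30. With the trend on span taken out, a setting added after the data were seen, 9 of the 26 genes and 9.59% of all genes were called higher and 0 of the 26 lower by edgeR, and Pcna was at 0.16. Transcript length was not analysed here.

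Markers of other cells were measured beside these genes. Of all genes tested 7% were called higher and 17% lower, and the groups did not overlap upward in 2.94% and downward in 5.4%. The 13 microglial markers summed to 77.9 to 106.0 CPM in mild-hypo-OPCs against 49.7 to 80.8 CPM in standard OPCs, with 3 of 7 tested genes higher (Cd68, Csf1r and C1qb) and 1 lower (Tyrobp). The 10 oligodendrocyte markers summed to 13080 to 14440 CPM against 8885 to 12890 CPM, without overlap. Of these 5 of 9 were higher (Cldn11, Mag and Myrf by the largest changes), with a median log2 fold change of 0.28. The 10 neuronal markers summed to 361.9 to 421.5 CPM against 271.2 to 347.0 CPM, also without overlap, with 1 of 6 higher (Tubb3). The 9 astrocyte markers summed to 851.7 to 995.8 CPM against 803.6 to 906.1 CPM, with 2 of 7 higher (Aqp4 and Slc1a3) and 1 lower (S100b), all 3 without overlap. The 11 mesenchymal and endothelial markers summed to 28.9 to 44.6 CPM against 17.8 to 28.2 CPM, without overlap and 1.45 times as much, the highest ratio of the marker lists. Of these, Lum and Cdh5 were at 0 in every library, Dcn was at 0 in every mild-hypo-OPC library, and Tagln alone passed the filter (0.53, called higher). The part of these cells in the values of the S-phase genes was not tested.

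The calls differed between settings for depth and between subsets of libraries. With log2 total count as a covariate 0 of the 26 genes and 0% of all genes were called higher by edgeR, with 3 of the 26 at an unadjusted p under 0.05, and all 7 calls were lost. The log2 fold changes of Mcm2, Mcm4, Mcm5, Mcm6, Rrm2, Uhrf1 and Atad2 were then 0.59, 0.58, 0.47, 0.40, 0.41, 0.63 and 0.83, and since totals do not overlap between the groups this fit cannot tell depth and condition apart. After every library was thinned to the smallest total, 8 of 31 genes tested were called higher, the same 7 with Mcm10 (0.98), against 5.77% of all genes. In replicates 1 to 3 alone 0 of 24 genes were called higher by edgeR (0.62% of all genes were, and 10 of the 24 had an unadjusted p under 0.05), and in replicates 4 to 6 alone 7 of 26 (6.48% of all genes), with Mcm7 and Dtl in place of Rrm2 and Atad2. The log2 fold change of Mcm6 was 0.38 in replicates 1 to 3 and 1.16 in replicates 4 to 6. Reads of 14 of the 41 genes can be shared with pseudogenes or copies that RefSeq names after them, and Mcm2, Mcm4 and Rrm2 are among these. The share of all genes called higher, beside which the counts under the other settings stand, was 6.37% with limma-voom, 8.89% with DESeq2, 12.7% with upper-quartile scaling and 61.7% with library size only, the setting in which 23 of the 26 genes were called. It was 4.22% with no filter, 5.77% with filterByExpr, 8.43% with at least 10 counts in every library, 6.4% with the replicate block and 6.97% with rows of the same symbol summed. Without mild-hypo-OPC replicates 1 to 6 in turn it was 6.43%, 6.87%, 7.35%, 7.14%, 6.34% and 8.81%, and without standard OPC replicates 1 to 6 it was 9.22%, 7.95%, 5.15%, 5.22%, 4.91% and 5.24%. Counting both directions, 24% of all genes were called, and at an unadjusted p under 0.05 13.4% were higher and 22.9% lower, beside 11 and 1 of the 26 genes.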

How the data were processed

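Bulk RNA-seq counts of 12 libraries of primary rat OPCs were analysed, 6 of mild-hypo-OPCs and 6 of standard OPCs, grouped by their titles. Per the labels, the authors trimmed reads with Trimmomatic 0.36, checked them with FastQC 0.11.9, aligned them to mRatBN7.2 with STAR 2.7.9a and quantified genes with RSEM 1.3.3. The deposited values are raw counts for each Ensembl gene, all whole numbers, and how they were made whole is not given in the sources used here.

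Genes exceeding 10 CPM in any library before TMM scaling were retained and then scaled by TMM. Condition was the single factor in the quasi-likelihood test (glmQLFit, glmQLFTest) of edgeR 4.0.16 in R 4.3.3, and calls were made at a Benjamini-Hochberg adjusted p of 0.05. Standard errors and 95% intervals are those implied by the F statistic. Levels of genes below the filter use the same scaling. limma 3.58.1 (voom), DESeq2 1.42.0, 2 other scalings, 3 other filters, the replicate number as a block, log2 total count as a covariate, thinning, summing rows by symbol and subsets of libraries were alternatives, and the methods were tested on simulated data. There edgeR recovered 52 of 100 genes given a log2 change of 0.5 and 93 of 99 given a change of 1. A gene not called may therefore have changed by 0.5. Counts of the 15 pairs of libraries per group differed by more than sampling noise (chi-square per degree of freedom of at least 3.22), so none looked like the same library deposited again, which does not show that libraries came from separate cultures. Same-numbered libraries were not treated as paired in the main fit (correlation of their deviations from the group means from -0.28 to 0.30). These correlations cannot show whether such libraries shared a culture. Total counts (1356079 to 9022324) bound the precision, and intervals cover these libraries only.

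The members and lists were chosen with earlier results of these data known. Full values are given for tested genes of the MCM, nucleotide supply and checkpoint groups and for called genes, and of other lists the 3 called genes with the largest change are named. Genes named beyond this rule were chosen after their values were seen. They are Pold1, Lig1, Rnaseh2c, Rpa3, Gins4, Pole3, Recql4, Chek1, Bard1 and, among markers, Csf1r and those at 0. Promoter sequences and gene spans are from RefSeq (GRCr8), matched by symbol, with a span for 95.59% of the genes kept.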

Additional observations from a re-analysis of the deposited data

Results flagged for a closer look

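Over 70 groups of 6 libraries tested, of single genes and of sums by role, 3 held a library whose gap to the nearest other library exceeded the 95% critical value for its share of the range, and chance gives such a gap in about 1 in 20 groups. Pcna was at 100.6 CPM in standard OPC replicate 5, with the next library at 71.7 CPM and the lowest at 55.2 CPM. The same library was highest for the summed polymerase, clamp and fork genes, which include Pcna, with 157.9 CPM and the next at 122.9 CPM. For the summed cyclin and transcription factor genes, Ccne2 and E2f8, mild-hypo-OPC replicate 2 was highest with 24.7 CPM and the next library was at 22.1 CPM.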

How the results depend on the processing

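The count of genes called higher (7) stayed within 1.5 times under limma-voom, DESeq2, upper-quartile scaling, the 3 other filters, thinning, summed symbols, the span trend and replicates 4 to 6 alone. It was 23 with library size only, which moved the median of all genes to 0.43, and 0 by edgeR with log2 total count as a covariate (3 at an unadjusted p under 0.05) and in replicates 1 to 3 (10 at an unadjusted p under 0.05). No gene was called lower by edgeR with all libraries, 1 was by DESeq2, and 1 by edgeR without standard OPC replicate 2 (Tipin in both). The median of the tested genes (0.30) was 0.37 with upper-quartile scaling, 0.72 with library size only, 0.39 with no filter, 0.35 with filterByExpr, 0.25 with the total as a covariate, 0.38 in replicates 1 to 3 and 0.37 with the span trend removed, the last chosen after seeing the data. With the replicate block 7 genes were called higher, 0 lower, and the median was 0.29, so the block changed no call. Of 6 mild-hypo-OPC libraries 1 correlated best with the standard OPC library of its own number. Leaving out each library gave 7 to 8 genes higher, 0 to 1 lower and medians of 0.28 to 0.36. Directions reversed for uncalled genes only. With library size only Gmnn was at 0.14 and Pcna at 0.33. With the total as a covariate Mcm3 was at -0.14, Gmnn 0.22, Pcna 0.12 and Nasp -0.16. With the span trend removed Pcna was at 0.16. Thinned, Prim1 was at -0.0033 and Fen1 at -0.022. In replicates 1 to 3 Mcm7 was at -0.072, and in 4 to 6 Prim1 was at -0.041, Nasp -0.045, Slbp -0.46 and Ccne2 -0.15. The causes were not tested. Leaving out 1 library also reversed Prim1 (-0.026 to 0.097), Pcna (-0.15 to 0.030), Nasp (-0.018 to 0.13) and Slbp (-0.080 to 0.19). The 15 genes below the filter had 0 to 22 counts per standard OPC library.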

Other observations

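The make-up of the MCM transcripts was not described above. As a share of the counts of the 6 subunit genes in a library, Mcm7 took 24.2% to 27% in mild-hypo-OPCs (median 25.5%), against 23.4% to 38% in standard OPCs (median 30%), and Mcm6 took 19% to 21.3% (median 20.3%) and 12.7% to 22.3% (median 16.8%). The shares of Mcm3 were the lowest in both groups, with medians of 5.25% and 5.79%. The ranges overlapped for each of the 6 genes, and no test of the shares was made. Rrm1 and Rrm2 counts together per Pcna count were 1.26 to 1.58 in mild-hypo-OPCs against 0.728 to 1.4 in standard OPCs, with overlap.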
